A study of Mus musculus with 16 samples.

Results

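The cells described here are squamous-like cells of mouse colon tumour organoids, chosen by a score over 7 genes. The genes were Tmprss11d, Asprv1, Krt16, Psca, Krt90, Dmkn and Ppbp, and the score of a cell was the mean over them of ln(1 + 10000 × UMIs of the gene / all UMIs of the cell). A UMI (unique molecular identifier) stands for 1 captured RNA molecule. Barcodes with at least 1000 detected genes, at least 2000 UMIs and at most 20% of UMIs from mitochondrially encoded genes were kept, and the 10% of kept cells with the highest scores over both libraries are called members. There were 419 members among 4186 kept cells, 325 of 1499 in the plus TAM library and 94 of 2687 in the minus TAM library. A class chosen from a per-cell score is a range of cells and not a separate type.

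The organoids came from AOM/DSS tumours, which form in the mouse colon after the carcinogen azoxymethane and the irritant dextran sodium sulfate, and were at passage 14. One group carries the genotype KMT9ko/ko and the label plus TAM, and the other the genotype KMT9wt/wt and the label minus TAM. KMT9 is a histone methyltransferase whose catalytic subunit is the product of N6amt1, and the title of the series concerns its part in growth and stemness of colorectal cancer. The 8 records of a group stand for 1 deposited matrix, so each group is 1 library here, replicates could not be compared, and the values describe these 2 libraries and no others. TAM is not spelled out in the labels, and the sources used here do not give the Cre driver, the number of mice or organoid lines or the deleted exon. As every KMT9ko/ko cell is also a plus TAM cell, TAM and the knockout cannot be told apart. Day 5 appears in the names of the deposited tables alone.

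Stratified squamous epithelium lines skin, mouth, oesophagus and forestomach, and is renewed from a basal layer marked by the transcription factor p63 and the keratins KRT5 and KRT14. Cells that leave this layer switch keratins and build the cornified envelope, a protein shell of loricrin, involucrin and small proline-rich proteins that transglutaminases cross-link under the plasma membrane. Proteases and their inhibitors control how the shell matures and is shed. The colon is lined by a single layer of columnar cells with the simple keratins KRT8, KRT18 and KRT19, and squamous genes are usually low in it, although regenerating and tumour epithelium can express some of them.

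Of the 7 genes in the score, Tmprss11d encodes a membrane serine protease of airway and squamous epithelium, and Asprv1 a retroviral-like aspartic protease of the granular layer of skin that processes profilaggrin. Krt16 is a keratin of activated and wounded epidermis, and Krt90 a type II keratin. Psca encodes a lipid-anchored surface protein of the LY6 family, and Dmkn encodes dermokine, a secreted protein of differentiating epidermis. Ppbp encodes a chemokine precursor best known from platelets.

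AP-1, the FOS and JUN family of transcription factors, acts on many genes of epidermal differentiation and recognises TGANTCA, a sequence that reads the same on both strands and was searched on both strands in the 250 bases before each RefSeq start (GRCm38.p6, the build the submitters call mm10). The motif stood in 3 of the 5 score genes with a promoter entry (Tmprss11d, Dmkn and Ppbp), at any start of 17 of 109 genes (15.6%) that were higher in members as described below, of 12 of 141 (8.51%) lower in members, of 354 of 6431 (5.50%) measured and of 2113 of 27025 (7.82%) in the whole table, counting genes with an entry. A match describes these letters and not a bound site. Shown are the 100 bases just before the start, 5′ to 3′ on the strand of the gene, with the motif in capitals, for 2 score genes with a match (Tmprss11d, chr5:86373388-86373487, minus strand, and the first start of Dmkn, chr7:30763656-30763755, plus strand), for 2 genes outside the score that were higher in members (Serpinb7, chr1:107422589-107422688, plus strand, and Lor, chr3:92083143-92083242, minus strand), and for the leading score gene and the basal keratin gene without a match (Asprv1, chr6:86628074-86628173, plus strand, and Krt14, chr11:100206031-100206130, minus strand). The first base of the motif lies 39 bases before the start in Tmprss11d, 89 in Dmkn, 45 in Serpinb7 and 48 in Lor. The stretches of Serpinb7 and Krt14 lie inside these genes as GENCODE M21 places them (chr1:107399655-107452689 and chr11:100203162-100207548). Bases before the outer ends of these genes were not searched, so the lack of a match in Krt14 holds for this RefSeq start alone.
Tmprss11d: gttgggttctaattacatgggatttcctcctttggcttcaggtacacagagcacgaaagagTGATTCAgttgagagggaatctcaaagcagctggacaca
Dmkn: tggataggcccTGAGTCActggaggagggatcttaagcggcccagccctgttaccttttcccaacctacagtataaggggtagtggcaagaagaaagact
Serpinb7: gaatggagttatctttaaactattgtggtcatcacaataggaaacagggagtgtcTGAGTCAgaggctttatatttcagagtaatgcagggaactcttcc
Lor: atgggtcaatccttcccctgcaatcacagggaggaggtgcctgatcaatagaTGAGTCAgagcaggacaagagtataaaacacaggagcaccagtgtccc
Asprv1: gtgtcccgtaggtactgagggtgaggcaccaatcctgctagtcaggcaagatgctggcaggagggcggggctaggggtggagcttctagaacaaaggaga
Krt14: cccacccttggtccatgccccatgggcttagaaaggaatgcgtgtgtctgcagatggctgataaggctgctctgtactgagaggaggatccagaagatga

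The plus TAM matrix held 2078 barcodes and 38860718 UMIs, and the minus TAM matrix 3618 barcodes and 72223578 UMIs. Members had a median of 28178 UMIs per cell in the plus TAM library and 27478 in the minus TAM library, against 23495 and 24636 in the other kept cells. Median detected genes per member were 4872 and 4967.5, against 4649 and 4865 in other cells, and the median mitochondrial share was 2.41% and 2.72%, against 3.01% and 2.88%. Summed over cells, the members held 9353190 and 2790302 UMIs, so the counting error of minus TAM members is the widest in what follows. Of all barcodes, 498 occurred in both matrices. Cells of such a shared barcode made up 50 of 325 plus TAM members (15.4%) and 6 of 94 minus TAM members (6.38%), against 284 (24.2%) and 172 (6.63%) of the other cells. For the 50 plus TAM members the copy in the minus TAM matrix was always the smaller one, with a median of 30708 UMIs in the plus TAM copy and 964 in the minus TAM copy. Values that move by more than 1.5 times without these cells are given both ways. Scrublet, a doublet caller, marked 3 plus TAM and 10 minus TAM cells by its automatic threshold (0.200% and 0.372%), and whether it missed doublets was not tested. At an assumed rate of 0.8% per 1000 cells, the 18 and 58 cells with the highest doublet scores were also taken, of which 4 and 0 were members.

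Members made up 21.7% of the kept cells of the plus TAM library (95% Clopper-Pearson interval 19.6 to 23.9) and 3.50% of those of the minus TAM library (2.84 to 4.26). These intervals, and all below, cover counting error only and not differences between cultures. The plus TAM library gave 77.6% of all members and 35.8% of all kept cells. The score had no gap at the limit, as the lowest member had a score of 0.272147 and the highest other cell 0.271148. Within 0.05 of the limit lay 93 members (22.2%) above it and 168 other cells below it. Plus TAM members had a median score of 0.441 and a highest of 2.12, and minus TAM members a median of 0.335 and a highest of 0.877. At the other end, 503 other cells of the plus TAM library (42.8%) and 1465 of the minus TAM library (56.5%) had a score of 0. With score genes left out 1 at a time, the shares stayed between 19.7% and 22.0% in the plus TAM library and between 3.31% and 4.61% in the minus TAM library. The score genes were chosen with earlier results of these data known. All these shares thus describe the rule, and those with a gene left out give no separate support.

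**Figure D1:**
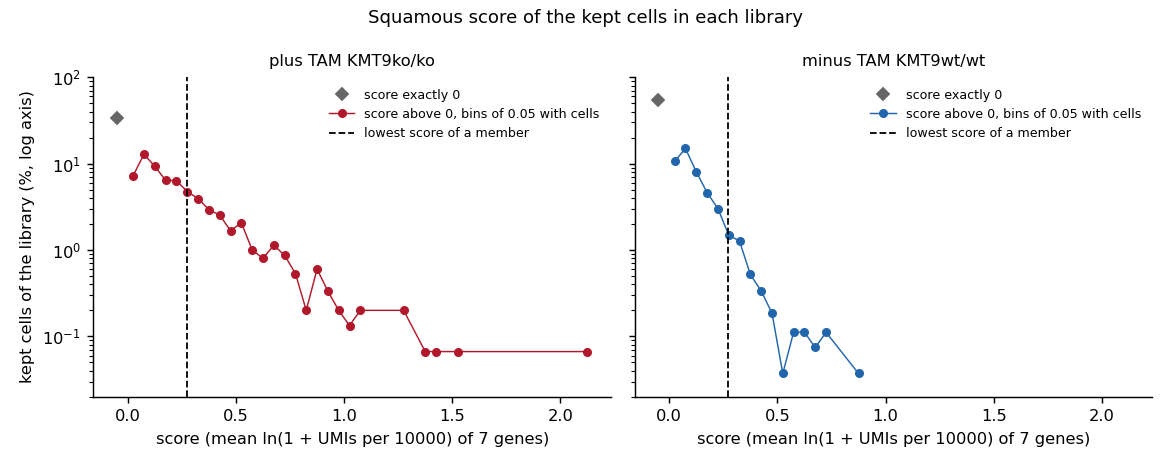
Share of the kept cells of each library (percent, log axis) by score, in steps of 0.05 with cells at 0 apart; the dashed line is the lowest score of a member, 0.272147. The plus TAM library lies above the minus TAM library on the right of the line, where 21.7% of its cells and 3.50% of minus TAM cells stand.

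The 7 score genes chose the members, so their values are a description. Asprv1 stood at 579 CPM (UMIs per 1000000 UMIs of the summed cells) in plus TAM members and 319 CPM in minus TAM members, against 34.1 and 30.1 CPM in the other cells of these libraries. Krt90 stood at 265 and 140 CPM in members, against 29.9 and 7.37 CPM. Tmprss11d stood at 35.5 and 3.58 CPM, against 2.23 and 0.38 CPM. Its values rest on 332 UMIs in plus TAM members and 10 in minus TAM members. Krt16 stood at 44.4 and 55.9 CPM in members, against 4.78 and 2.60 CPM in other cells. Psca stood at 60.6 and 70.6 CPM, against 5.69 and 3.32 CPM, so these 2 genes were not lower in minus TAM members than in plus TAM members. Dmkn stood at 50.4 and 24.4 CPM, against 6.004 and 3.04 CPM. For Ppbp the values were 61.4 and 40.5 CPM, against 2.27 and 1.61 CPM, and 1 minus TAM cell held 48.7% of the Ppbp UMIs of its members. The platelet genes Pf4, Itga2b, Gp9, Gp1bb, Itgb3 and Treml1 were each below 1 CPM in members of both libraries.

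Members differed among themselves in the score gene that led. Asprv1 made the largest contribution in 182 plus TAM members (56.0%) and 55 minus TAM members (58.5%), and Krt90 in 82 (25.2%) and 14 (14.9%). UMIs of 3 or more score genes were found in 214 plus TAM members (65.8%) and 54 minus TAM members (57.4%), against 72 (6.13%) and 70 (2.70%) of the other cells. The remaining members passed the limit on 1 or 2 genes.

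The label was checked against markers of squamous and other cells. Members had higher squamous markers than other cells, but the basal marker Trp63 was absent, and they kept the markers of colon epithelium. Trp63, which encodes p63, had 0 UMIs in every kept cell, which allows a share of members with a UMI of up to 0.923% in the plus TAM and 3.19% in the minus TAM library. Krt5 stood at 2.03 and 2.15 CPM in members, against 0.38 and 0.84 CPM in other cells. Flg, the filaggrin gene, had 0 UMIs in members, Krt1 had 1 UMI, and Krt10, its partner in skin, stood at 30.6 and 24.4 CPM in members, against 28.0 and 20.3 CPM. The summed level of the 5 basal markers was 353 and 357 CPM in members, against 88.4 and 71.1 CPM, nearly all of it from Krt14. That of the 13 suprabasal markers was 2489 and 2903 CPM, against 860 and 1310 CPM. Of the 7 that could be measured, 6 were at least 1.5-fold higher in each library, where 1.84% of all measured genes were. Krt13, among these 6, reached the level to be measured (10 CPM) in members alone and could not have come out lower.

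The 7 colon epithelium markers summed to 15288 and 14099 CPM in members, against 12091 and 11076 CPM in other cells, with Epcam at 823 and 745 CPM, against 995 and 905 CPM. Immune markers summed to 0.43 and 0 CPM in members with 7 of 8 at 0 in both libraries, and fibroblast markers to 0.21 and 1.08 CPM with 4 of 5 at 0. Urothelial markers summed to 14.2 and 14.7 CPM, against 18.9 and 15.6 CPM, and gastric ones to 5.67 and 2.87 CPM, against 3.67 and 2.91 CPM. The name squamous-like is used for these members with that limit, namely squamous keratin and envelope genes on a colon epithelial background without Trp63.

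Outside the score genes, 8116 genes had 10 or more CPM in at least 1 of the 4 sums (members and other cells of each library) and are called measured. To be counted, a gene had to differ between members and other cells by 1.5-fold or more in the same direction in both libraries, which is a size and not a test. By this rule 149 genes were higher in members (1.84% of those measured) and 182 were lower (2.24%). Over all measured genes the median log2 ratio of members over other cells was -0.08 in the plus TAM and -0.07 in the minus TAM library. Set beside these shares, 5 of 7 stratified keratins, 8 of 14 cornified envelope genes and 2 of 9 basal squamous and hemidesmosome genes were higher. A gene enters on its level in any 1 sum, so a gene that passed only where it was high could not be near equal, and the counts of lists are read with that limit. For example, Krt13, Rptn, Csta1, Prss27, Grhl1 and Aldh3a1 reached 10 CPM in members alone, and Reg4 in other cells alone.

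Of 7 measured stratified and stress keratins 5 were higher and 0 lower, with median log2 ratios of 1.69 in the plus TAM and 0.97 in the minus TAM library. Krt14 is not one of these 7. Of 9 measured basal squamous and hemidesmosome genes, a separate list, 2 were higher, 0 lower and 7 neither, with median log2 ratios of 0.37 and 0.48. Krt14 (ENSMUSG00000045545, chromosome 11, 100203162 to 100207548, mm10), the basal keratin, stood at 318 and 338 CPM in members, against 74.8 and 66.2 CPM in other cells. The log2 ratios were 2.09 (interval 2.01 to 2.17) and 2.35 (2.25 to 2.45), so both libraries showed a difference of more than 4-fold. Krt6a, a keratin of wounded epidermis, stood at 211 and 161 CPM, against 50.1 and 48.0 CPM. Krt17, another stress keratin, stood at 30.8 and 40.5 CPM, against 5.24 and 12.3 CPM. Krt4 and Krt13 form the keratin pair of the oesophagus and mouth above the basal layer. Krt4 stood at 862 and 1537 CPM in members, against 266 and 783 CPM, and Krt13 at 11.97 and 44.1 CPM, against 2.62 and 3.71 CPM. Both were thus higher in minus TAM than in plus TAM members. Krt80, a keratin that appears late in differentiation, stood at 30.3 and 12.2 CPM, against 11.3 and 7.47 CPM. Krt15, a basal keratin, stood at 32.7 and 16.8 CPM, against 13.1 and 4.04 CPM, and without cells of a shared barcode at 32.2 and 17.7 CPM, against 3.91 and 4.19 CPM. Without the member cell of each library that held most of it, Krt15 stood at 16.5 and 14.1 CPM in members. It was then under 1.5-fold over the other cells of the plus TAM library. These keratins are close in sequence, and the sources used here do not say how reads that match several of them were counted.

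Simple keratins differed less. Krt7, a keratin of ducts and urothelium, stood at 3348 and 3560 CPM in members, against 1702 and 2034 CPM, and Krt19 at 6687 and 6759 CPM, against 4191 and 4186 CPM. Krt8 (3794 and 3228 CPM, against 3201 and 2914 CPM) and Krt18 (3748 and 3125 CPM, against 3455 and 2804 CPM) stayed under 1.5-fold. Members thus had the keratins of columnar and of squamous cells side by side in the summed counts. Krt36, a hair and tongue keratin, stood at 35.6 and 104 CPM in members, against 24.5 and 21.1 CPM in other cells.

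Of 14 measured cornified envelope genes 8 were higher and 0 lower, with median log2 ratios of 0.73 and 1.17. Lor (ENSMUSG00000043165, chromosome 3, 92080271 to 92083142), which encodes loricrin, stood at 1049 and 792 CPM in members, against 323 and 309 CPM in other cells, with log2 ratios of 1.70 (interval 1.66 to 1.74) and 1.36 (1.30 to 1.42). Rptn, which encodes the envelope protein repetin, stood at 15.2 and 12.2 CPM, against 2.41 and 2.52 CPM. Csta1, of the cystatin A family of cysteine protease inhibitors, stood at 26.7 and 19.0 CPM, against 7.26 and 5.66 CPM. Sbsn, suprabasin, stood at 45.8 and 38.7 CPM, against 18.3 and 14.5 CPM. Ly6d, a surface protein of keratinocytes, stood at 267 and 293 CPM, against 165 and 129 CPM. These 5 genes were higher in members of both libraries. Without cells of a shared barcode Csta1 stood at 27.8 and 15.4 CPM, against 3.66 and 5.45 CPM, and Ly6d at 184 and 280 CPM, against 90.9 and 119 CPM. Ivl, involucrin, was too low to count as measured, at 6.84 and 4.66 CPM, against 3.07 and 0.72 CPM, and Sprr3 had 1 UMI in plus TAM and 0 in minus TAM members.

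Sprr1a, a small proline-rich envelope protein also induced in injured gut epithelium, differed more between the libraries than between members and other cells of the plus TAM library. It stood at 272 CPM in plus TAM members and 54.8 CPM in minus TAM members, against 222 and 11.8 CPM in other cells. Without cells of a shared barcode the values were 147 and 54.8 CPM, against 140 and 10.6 CPM. A single minus TAM member held 46.4% of the Sprr1a UMIs of its group, and without the top cell of each library members stood at 226 and 29.7 CPM. The desmosome list had 1 of 9 higher, the plakophilin gene Pkp1 at 38.4 and 33.7 CPM, against 22.2 and 20.3 CPM. The epidermal lipid list had 1 of 10 higher, Cers3, a ceramide synthase of the skin barrier, at 42.0 and 42.3 CPM, against 26.6 and 26.4 CPM. Gap and tight junction genes had 0 of 15 higher and 1 lower.

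Proteases and inhibitors of squamous epithelium were partly higher, with 3 of 10 measured serine proteases and 2 of 13 measured inhibitors. Prss22, a tryptase-like protease, stood at 93.3 and 37.6 CPM in members, against 38.2 and 14.3 CPM. Prss27, a membrane-anchored protease, stood at 20.1 and 17.6 CPM, against 8.55 and 3.04 CPM, and Tmprss13, a transmembrane protease of epidermis, at 28.4 and 15.4 CPM, against 17.0 and 9.60 CPM. Among the inhibitors, Slpi, which blocks neutrophil elastase, stood at 113 and 55.9 CPM, against 21.4 and 19.2 CPM. Serpinb11 stood at 400 and 361 CPM, against 236 and 206 CPM. Serpinb7, a serpin of differentiating epidermis named by its ratio and not on the inhibitor list, stood at 360 and 245 CPM, against 107 and 109 CPM, with log2 ratios of 1.74 (interval 1.67 to 1.81) and 1.17 (1.06 to 1.29).

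**Figure D2:**
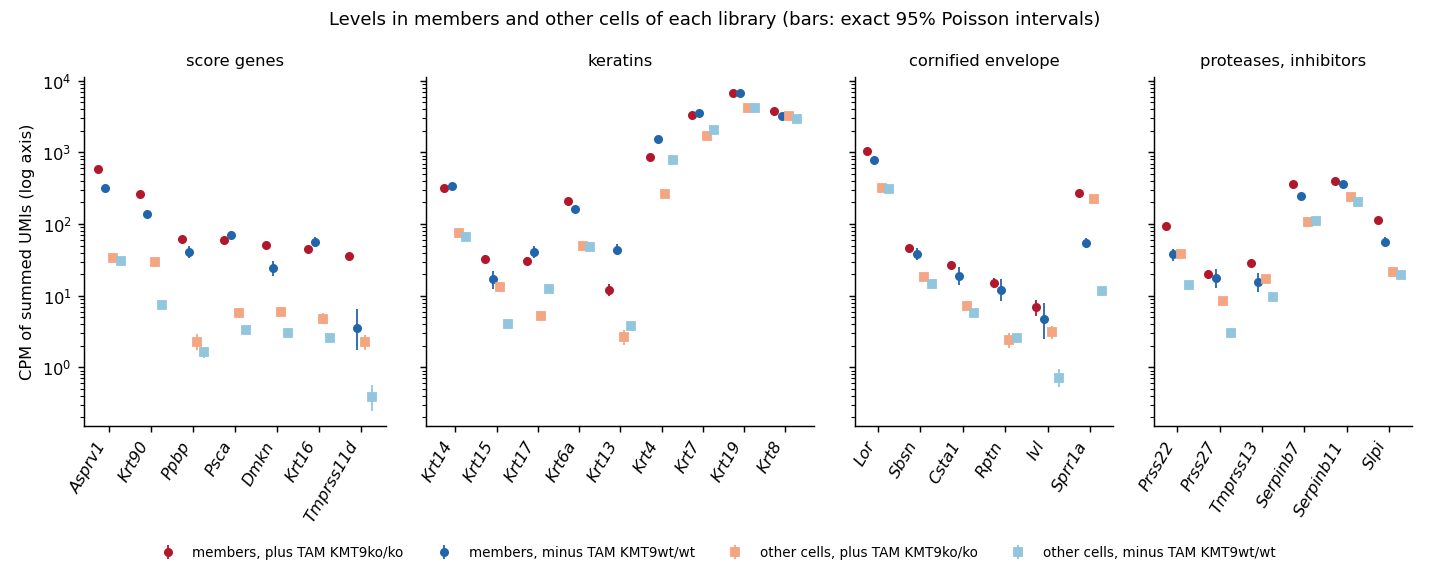
Levels (CPM, log axis, 95% Poisson intervals for counting error) of the score genes, keratins, cornified envelope genes, and proteases and inhibitors in members and other cells of the plus TAM and minus TAM libraries. Krt14 and Lor lie apart between members and other cells in both libraries, Krt8 lies nearly together in all 4 sums, and Sprr1a separates the libraries.

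Further genes with the largest ratios in both libraries lay outside the squamous lists. Hp, haptoglobin, a haemoglobin-binding plasma protein, stood at 101 and 91.8 CPM in members, against 21.5 and 23.8 CPM. Spp1, osteopontin, stood at 151 and 50.5 CPM, against 46.7 and 12.7 CPM, but in minus TAM members it was lower than in other cells when Asprv1 was left out of the score (log2 ratio -0.22). Mal, a membrane proteolipid of apical transport, stood at 127 and 108 CPM, against 49.7 and 31.2 CPM. Its relatives Mall (97.9 and 133 CPM, against 41.7 and 50.8 CPM) and Mal2 (218 and 228 CPM, against 107 and 107 CPM) were higher too. Sfn, 14-3-3 sigma, a cell cycle inhibitor of keratinocytes, stood at 268 and 170 CPM, against 135 and 76.2 CPM. Wnt7b, a Wnt ligand, stood at 99.4 and 93.9 CPM, against 48.8 and 52.3 CPM. The adhesion gene Nectin4, the annexin gene Anxa8, the GABA receptor gene Gabrp, Tmem40 and Lrrc26 were also among the 20 largest, with members above other cells in both libraries. Msln, mesothelin, stood at 607 and 559 CPM, against 366 and 272 CPM. The fetal-like, revival and YAP list had 5 of 27 higher and 0 lower.

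Transcription factor genes of squamous epithelium were mostly not counted, with 2 of 15 higher. Grhl1, a grainyhead-like factor of epidermal desmosomes, stood at 15.5 and 17.9 CPM in members, against 5.79 and 7.16 CPM, and Grhl3, which acts in barrier formation, at 25.1 and 39.8 CPM, against 14.9 and 25.2 CPM. Klf4, a factor of both skin and colon differentiation, stood at 230 and 309 CPM, against 189 and 256 CPM. Ovol1 (31.3 and 34.4 CPM, against 17.4 and 23.2 CPM) and Elf3 (366 and 460 CPM, against 257 and 342 CPM) also stayed under 1.5-fold in at least 1 library. Of 21 measured AP-1 and immediate early genes 1 was higher, Dusp5, and 1 lower. Among metabolic genes, the aldehyde dehydrogenase Aldh3a1 of cornea and stomach stood at 23.5 and 26.9 CPM, against 9.01 and 4.78 CPM, and the oxygen-sensing hydroxylase Egln3 at 160 and 102 CPM, against 84.9 and 60.4 CPM. In defence, Il18 stood at 41.1 and 44.1 CPM, against 20.04 and 22.4 CPM, and S100a16 at 744 and 411 CPM, against 463 and 223 CPM. Cd68, a lysosomal membrane gene also used to mark macrophages, stood at 23.6 and 27.6 CPM, against 10.9 and 9.48 CPM, while Ptprc, Lyz2 and Tyrobp were at 0 in members.

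Among the genes lower in members were markers of secretory cells and single genes of colonocytes and of Wnt feedback. Reg4, a lectin of deep crypt secretory cells, stood at 1.71 and 0.72 CPM in members, against 39.1 and 44.3 CPM in other cells. With Ang4, Itln1 and Agr2 it made 4 lower of 7 measured goblet and deep crypt genes, beside 2.24% of all measured genes. Of these 7, 3 reached 10 CPM in members. The rest were measured through other cells alone and could not have been counted as higher. All 4 lower genes were low in members, at 4.19 CPM or less without cells of a shared barcode. The count thus rests on genes of that kind and is no separate support. Without cells of a shared barcode Reg4, Itln1 and Agr2 stayed lower in members of both libraries. Ang4 then stood at 0.13 and 0.75 CPM in members, against 0.05 and 14.4 CPM in other cells, and was no longer lower in plus TAM members. Car1, a colonocyte carbonic anhydrase, stood at 11.1 and 4.66 CPM, against 332 and 55.1 CPM, and without cells of a shared barcode at 9.96 and 4.51 CPM, against 15.7 and 48.7 CPM. The plus TAM difference of Car1 thus rested mainly on shared barcodes. Of 8 colonocyte markers 4 were measured, with 1 lower and 0 higher, and the 8 summed to 49.8 and 71.3 CPM, against 401 and 63.3 CPM. Krt20, another of them, stood at 28.0 and 14.6 CPM in members without shared barcodes, against 9.07 and 5.55 CPM. A single cell held 61.5% of the Krt20 UMIs of all minus TAM members. Of 21 measured surface colonocyte genes 3 were lower, 1 higher and 17 neither. Vim, vimentin, stood at 72.9 and 56.3 CPM, against 421 and 169 CPM. The metallothionein genes Mt3 and Mt4 were lower, with Mt4 at 89.8 and 79.9 CPM, against 685 and 142 CPM, and at 76.6 and 45.6 CPM in members without the cell of each library that held most of it. Wif1, a secreted Wnt antagonist, stood at 181 and 152 CPM, against 578 and 271 CPM, and Nkd1, an intracellular one, at 296 and 397 CPM, against 849 and 593 CPM, which missed 1.5-fold in the minus TAM library. Etv5, a target of MAPK signalling, stood at 5.56 and 3.94 CPM, against 40.0 and 13.5 CPM. Tcf7l2, the Wnt transcription factor, stood at 31.1 and 18.3 CPM, against 51.0 and 29.2 CPM.

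Cdx2, the factor of intestinal identity, was nearly equal in the plus TAM library, at 26.1 CPM in members and 24.8 CPM in other cells, and lower in the minus TAM library, at 52.3 CPM in members and 94.4 CPM in other cells. Ascl2, a stem cell factor, followed the same order, at 39.3 CPM in members and 37.6 CPM in other cells of the plus TAM library, and 55.2 and 119 CPM in the minus TAM library. Lgr5, a stem cell receptor, stood at 1.07 and 0.72 CPM in members, against 2.65 and 5.03 CPM. The intestinal stem cell and Wnt list had 0 of 23 measured genes higher and 1 lower. Of the S phase list 0 of 31 were counted in either direction. Of 30 measured G2 and M phase genes 17 were lower and 0 higher, with median log2 ratios of -1.20 and -0.65. Ube2c, of the mitotic ubiquitin ligase, stood at 55.1 and 97.1 CPM in members, against 137 and 184 CPM, and Cenpf, of the kinetochore, at 8.34 and 11.8 CPM, against 22.9 and 38.9 CPM. Without cells of a shared barcode Ube2c stood at 52.7 and 55.6 CPM, against 133 and 158 CPM, and 22 of 28 of the list were lower. Without the member of each library that held most of its UMIs Ube2c stood at 48.1 and 58.03 CPM in members. The count moved with the choice of score genes, as 1 of 32 was lower with Asprv1 left out and 28 of 30 with Krt90 left out, and it fell to 1 of 30 with the limit set in each library.

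**Figure D3:**
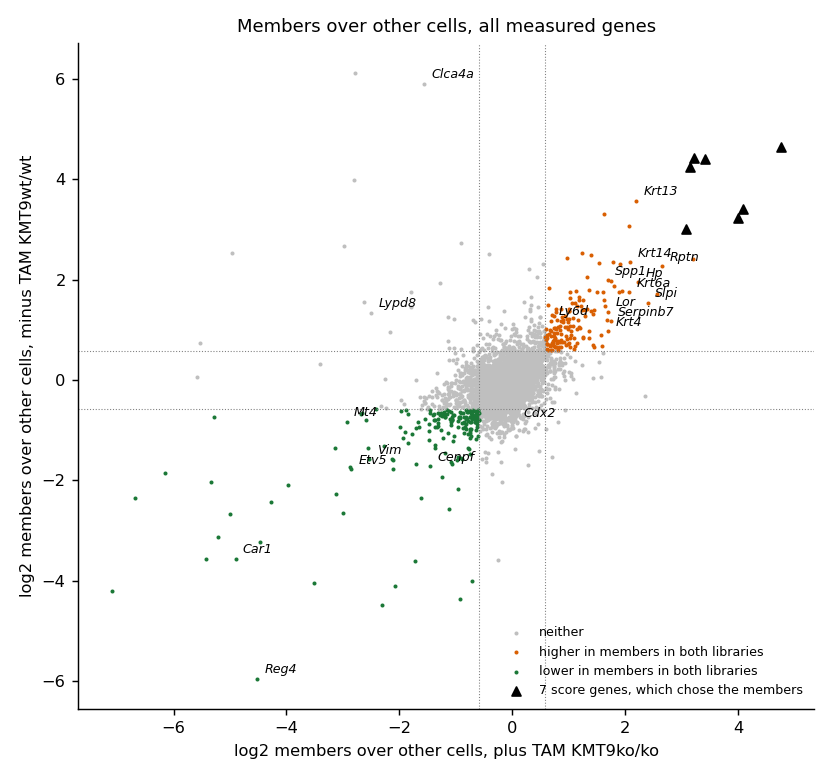
Log2 ratio of members over other cells for every measured gene, with the plus TAM library on the x axis and the minus TAM library on the y axis; score genes are marked and labelled genes are named in the text. Krt14, Lor and Hp lie in the upper right, and Car1, Reg4 and Vim in the lower left.

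To follow these genes through the range of the score, cells were divided into 7 bands, those at 0, 4 bands of other cells and 2 of members. The plus TAM share of cells was 25.6% in the lowest band and 28.0%, 32.4%, 37.8%, 51.0%, 68.1% and 87.1% in the next ones. Krt14 stood at 35.2 CPM in plus TAM cells at score 0 and at 382 CPM in the top band, and in minus TAM cells at 41.4 CPM and 305 CPM. Serpinb7 stood at 49.6 and 395 CPM in these bands of the plus TAM library and at 83.1 and 287 CPM in the minus TAM library. Both genes were already above the lowest band in cells below the limit, with Krt14 at 171 and 161 CPM in the last band of other cells. Lor lay without order between 219 and 465 CPM in the bands of other cells of both libraries, and stood at 403 and 465 CPM in that last band, and at 1324 and 860 CPM in the top band. Krt7 was 1264 CPM at score 0 and 3823 CPM in the top band of the plus TAM library, and 1773 and 4185 CPM in the minus TAM library. Vim ran the other way, at 735 CPM at score 0 and 38.2 CPM in the top band of plus TAM cells, and 208 and 33.6 CPM in minus TAM cells. Cdx2 had no such course in plus TAM cells, with 24.5 CPM at score 0 and 23.98 CPM in the top band, and stood at 108 and 42.0 CPM in minus TAM cells.

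**Figure D4:**
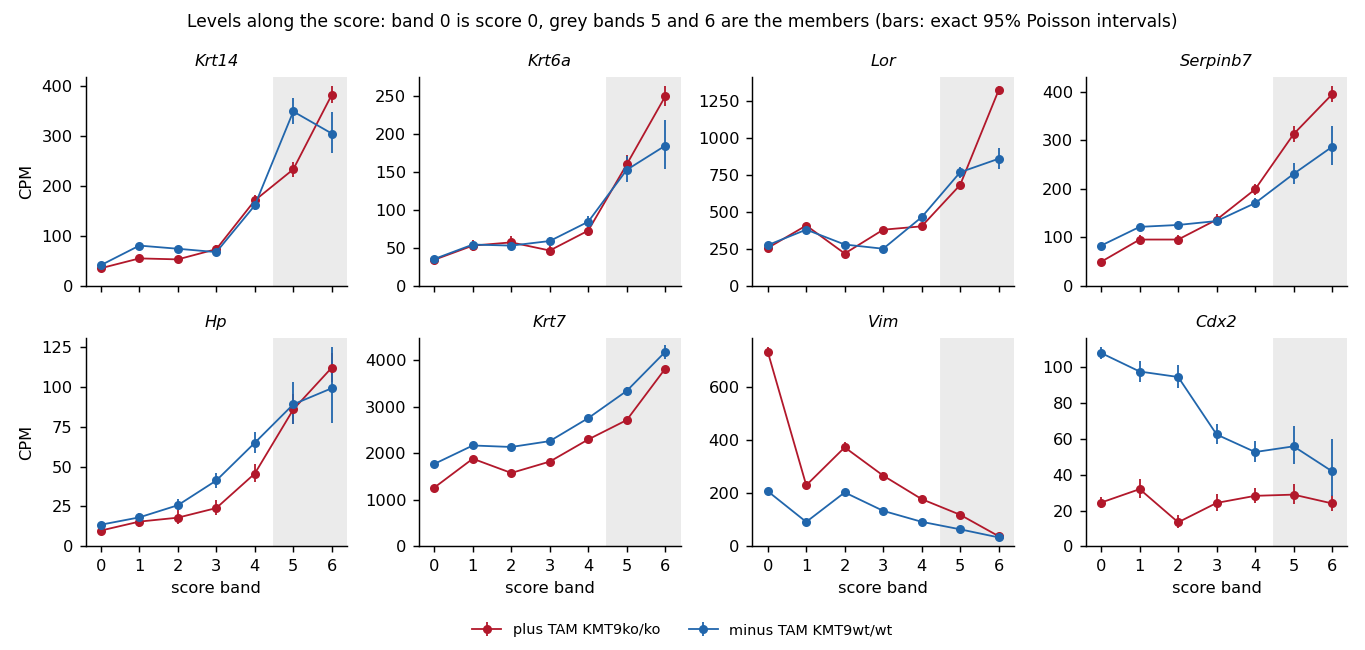
Levels (CPM, linear axes from 0, each gene with its own) of Krt14, Krt6a, Lor, Serpinb7, Hp, Krt7, Vim and Cdx2 along 7 bands of the score, from score 0 at band 0 to the highest scores at band 6, in each library; bands of members are grey and error bars are 95% Poisson intervals for counting error. The first 6 genes end higher than they begin, Vim ends lower in both libraries, and Cdx2 ends at 23.98 CPM in plus TAM and 42.0 CPM in minus TAM cells.

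Within members, the list levels of a cell were set against its score as a description over cells that share their library. The Spearman coefficient for the cornified envelope list was 0.41 in plus TAM and 0.27 in minus TAM members, for S100 and antimicrobial genes 0.43 and 0.20, and for the intestinal stem cell and Wnt list -0.30 and -0.12. For UMIs per cell it was 0.090 and -0.099. Members led by different score genes were alike in some genes and not in others. Krt14 stood at 316 CPM in plus TAM members led by Asprv1, 324 CPM in those led by Krt90 and 316 CPM in the rest, and Lor at 1057, 1021 and 1062 CPM. Spp1 stood at 204, 21.02 and 178 CPM, Serpinb7 at 444, 209 and 309 CPM, Mt4 at 27.7, 254 and 41.7 CPM and Ly6d at 124, 339 and 645 CPM. Krt90-led cells of the plus TAM library thus had the lowest Spp1 and Serpinb7 and the highest Mt4. In minus TAM members Lor stood at 906, 91.6 and 979 CPM in these groups, where the Krt90-led one held 14 cells.

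Within members, the first gene to compare between libraries was N6amt1, which encodes the catalytic subunit of KMT9. It stood at 4.49 CPM (42 UMIs) in plus TAM members and 28.7 CPM (80 UMIs) in minus TAM members, with a log2 ratio of -2.67 (interval -3.25 to -2.12). Other cells had 6.56 and 34.5 CPM, which makes a log2 ratio of -2.40 (-2.62 to -2.18), so the intervals of the ratio overlap. Trmt112, the partner subunit, stood at 157 and 185 CPM in members. The tags come from the 3′ end of transcripts, and the sources used here do not say whether they lie in the deleted part. Between members and other cells N6amt1 differed by less than 1.5-fold in both libraries over all kept cells, but without cells of a shared barcode it stood at 3.93 CPM in members and 7.07 CPM in other cells of the plus TAM library, past 1.5-fold, and at 28.2 and 34.8 CPM in the minus TAM library.

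In members of at least 1 library 7706 genes reached 10 CPM. Of these, 512 were higher in plus TAM than in minus TAM members by 1.5-fold or more (6.64%) and 758 were lower (9.84%). The median log2 ratio over these genes was -0.08 in members and -0.05 in other cells. With trimmed mean scaling the split was 672 higher and 559 lower. In other cells 285 of the 512 (55.7%) were counted as higher too and 0 as lower, and 402 of the 758 (53.03%) were counted as lower and 11 as higher. Of all 7706 genes, 591 (7.67%) were counted as higher and 731 (9.49%) as lower in other cells. These comparisons rest on 325 against 94 cells, and the plus TAM members had higher scores, as given above.

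S phase genes were lower in plus TAM members, 27 of 30 measured with 0 higher and a median log2 ratio of -1.02, beside -1.17 in other cells. Prim1, a DNA primase subunit, stood at 11.3 CPM in plus TAM and 37.6 CPM in minus TAM members, and Gmnn, geminin, which holds back a new round of replication, at 16.1 and 52.3 CPM. Rfc5, of the clamp loader and named by its ratio, stood at 19.9 and 53.4 CPM. G2 and M phase genes followed, with 21 of 26 lower, 0 higher and medians of -0.98 in members and -0.52 in other cells. A single minus TAM member held 41.3% of the Ube2c and 42.0% of the Plk1 UMIs of its group. Without the top member cell of each library the log2 ratio of Ube2c was -0.27, under 1.5-fold. The list was not counted again without that cell alone. The mitotic kinase gene Plk1 stood at 5.88 and 17.9 CPM in members, or 3.80 and 10.51 CPM without shared barcodes and 4.52 and 10.58 CPM without the top member cell of each library, and Mki67 at 6.20 and 11.5 CPM. Of 29 measured tRNA synthetase and amino acid response genes 8 were lower and 2 higher. Atf5 and Trib3, induced when amino acids are short, stood at 58.3 and 158 CPM and at 43.4 and 110 CPM. Ribosome biogenesis had 7 of 30 lower and 0 higher, with the spermidine synthase gene Srm at 101 and 164 CPM. Chchd10, a mitochondrial protein gene, stood at 160 and 512 CPM in members, and at 154 and 637 CPM in other cells. Atf5 and Chchd10 overlap other genes on the opposite strand, and the sources used here do not say if strand was used in counting.

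Squamous genes differed between the libraries in both directions within members. Krt4 was lower in plus TAM members, with a log2 ratio of -0.84 (interval -0.89 to -0.78), and Krt13 had -1.88 (-2.26 to -1.50). Without the 1 member cell of each library that held most of its UMIs, Krt13 stood at 8.49 CPM in plus TAM and 30.8 CPM in minus TAM members. Krt36 stood at 35.6 and 104 CPM in members, and at 24.5 and 21.1 CPM in other cells. On the other side Slpi was higher in plus TAM members with a log2 ratio of 1.02 (0.78 to 1.27), Prss22 with 1.31 (1.02 to 1.62) and Krt15 with 0.96 (0.51 to 1.43). For Krt15 a single plus TAM member held 49.7% of the UMIs, and without the top cell of each library it had 16.5 and 14.1 CPM, and the log2 ratio of 0.22 no longer reached 1.5-fold, nor did that of 0.33 for Krt15 in plus TAM members over other cells. Krt14 (-0.08, interval -0.19 to 0.02) and Lor (0.40, interval 0.34 to 0.47) stayed under 1.5-fold over all members. Without the top cell of each library Krt14 still did (0.04), but Lor stood at 1024 and 646 CPM, and its log2 ratio of 0.66 passed 1.5-fold. Scores were matched more closely in the lower band of members. There Lor stood at 683 CPM in plus TAM and 769 CPM in minus TAM cells. A single minus TAM cell of that band, with a score of 0.348, held 464 of the 2210 Lor UMIs of minus TAM members. The lower band was not summed without that cell, so the order of the libraries in it is not settled. In the upper band Lor stood at 1324 and 860 CPM. Of 13 cornified envelope genes measured within members 3 were higher and 0 lower, all of the small proline-rich family, and with the limit set in each library 9 of 15 were higher. Of 9 basal squamous and hemidesmosome genes 5 were higher and 0 lower, among them Lama3, a laminin chain gene, at 21.9 CPM in plus TAM and 2.51 CPM in minus TAM members, where it had 7 UMIs.

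Some genes of growth factor signalling and matrix were higher in plus TAM members. Of 15 EGFR and MAPK feedback genes 7 were higher and 0 lower, with a median log2 ratio of 0.52 beside 0.40 in other cells, and 3 were higher and 1 lower when Asprv1 was left out of the score. Egfr, the receptor, stood at 18.3 CPM in plus TAM and 6.09 CPM in minus TAM members, and Spry2 and Dusp6, which dampen its signal, at 30.6 and 11.1 CPM and at 59.3 and 34.0 CPM. Of 14 BMP and TGF-beta genes 5 were higher, with Inhba, an activin subunit, at 26.1 and 4.30 CPM and the SMAD repressor Skil at 60.9 and 19.4 CPM. Inhba stood at 15.3 and 4.51 CPM without cells of a shared barcode. Of 8 mesenchymal and matrix genes 5 were higher, among them Itga2, Itgb6 and Fn1, with a median log2 ratio of 1.08 beside 1.46 in other cells. Vim was not counted over all members. Without the top member cell of each library it stood at 68.0 and 41.6 CPM, and its log2 ratio of 0.71 passed 1.5-fold. Clu, a revival stem cell gene, stood at 256 and 73.5 CPM in members and 351 and 80.8 CPM in other cells, and without shared barcodes at 163 and 69.1 CPM in members. Rnd1, a small GTPase gene, stood at 115 and 30.1 CPM, Tnfrsf11b, osteoprotegerin, at 404 and 138 CPM, and Ccl2, a monocyte chemokine, at 79.8 and 20.8 CPM, or at 62.7 and 9.87 CPM without the top member cell of each library. Ccl5, a T cell chemokine, stood at 63.9 and 3.58 CPM, with most plus TAM UMIs in 1 cell, and at 24.9 and 2.17 CPM without that cell and its counterpart. Of 13 chemokine and cytokine genes 6 were higher and 2 lower.

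**Figure D5:**
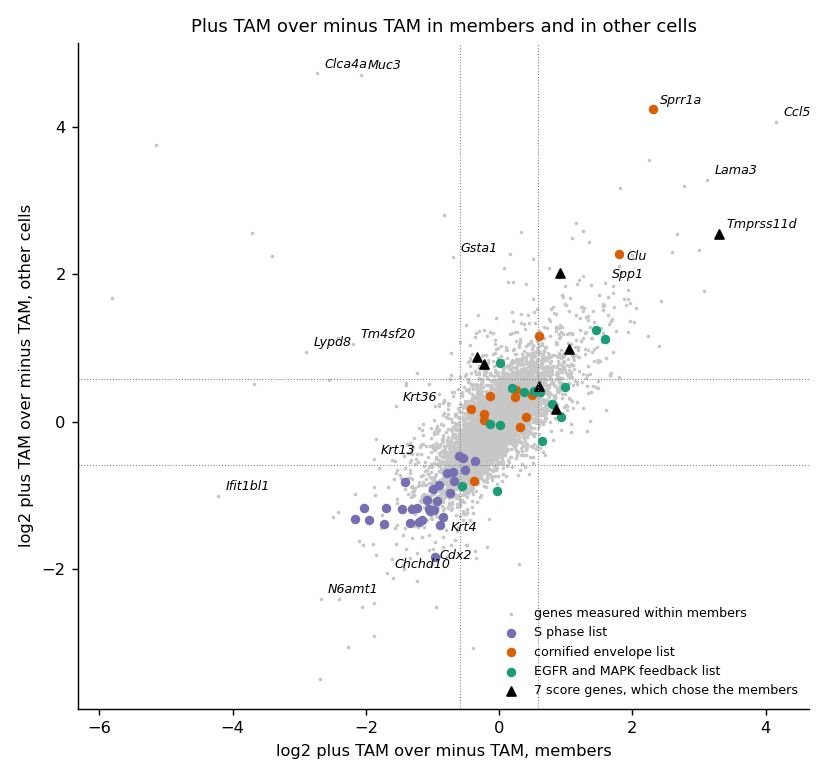
Log2 ratio of plus TAM over minus TAM for each gene measured within members, with members on the x axis and other cells on the y axis; the S phase, cornified envelope and EGFR and MAPK lists and the score genes are marked. S phase genes lie in the lower left, with medians of -1.02 in members and -1.17 in other cells.

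Single cells set some values of the smaller library. Lypd8, an antibacterial surface protein of colonocytes, stood at 61.9 CPM in plus TAM and 459 CPM in minus TAM members, but 1 minus TAM cell held 98.2% of its UMIs in those members. That cell had a score of 0.335, 31781 UMIs in all, 30 Psca UMIs and no UMI of the other score genes. It also held 100% of the Clca4a and Muc3 UMIs of minus TAM members, 95.8% of the Tm4sf20, 85.4% of the Gsta1 and 72.7% of the Ifit1bl1 UMIs. Without the cell that held most of the gene in each library, Lypd8 stood at 33.9 and 8.34 CPM. Ifit1bl1, of an interferon-induced family, stayed lower in plus TAM members, at 2.14 and 17.0 CPM against 3.31 and 61.6 CPM with all cells.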

How the data were processed

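Libraries were made with 10x Chromium 3′ version 2 chemistry, per the labels' protocols. The authors deposited raw UMI counts (whole numbers) for each gene in each barcode of at least 500 UMIs. Per the file headers, counting used Cell Ranger 3.1.0, and the build was mm10, per the submitters' processing notes. The sources used here name neither the annotation release nor the use of strand. GENCODE M21 held 31011 of the 31053 gene identifiers and gave the positions, and promoters are from RefSeq.

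Cells were filtered and scored as the report says, with 579 plus TAM and 931 minus TAM barcodes removed. Raw counts were summed per library over members and over other kept cells and scaled to CPM, and ratios are plus TAM over minus TAM or members over other cells. A gene with no UMI took a floor of 3 counts. Intervals (95%) are exact Poisson for CPM, conditional binomial for ratios and Clopper-Pearson for shares. UMIs remove duplicates of amplification, but the intervals cover counting error only. Sums, calls and intervals were tested on simulated data. Software was Python 3.11.15, numpy 2.4.6, scipy 1.17.1, scanpy 1.11.5 (Scrublet) and edgeR 4.0.16 in R 4.3.3 (trimmed mean factors only).

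The score, the members and the 43 gene lists were chosen with earlier results of these data known. Named genes are the score genes, N6amt1, a fixed set, the 20 largest and 12 smallest ratios in members and the 12 largest and 12 smallest between libraries at 50 or more CPM, and up to 4 genes per list; not every gene so named is printed, and a few are not reported here. Alternatives were other cell filters, score limits and score genes, thinning to 5000 UMIs, removal of shared barcodes or of high doublet scores, other size limits, minimum levels and scalings. Chosen after seeing the data were a mean over cells, members with 3 or more score genes, and each gene without the member cell that held most of it. Where a gene and its neighbours overlap, reads could be divided between them.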

Additional observations from a re-analysis of the deposited data

Results flagged for a closer look

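For 5 named genes plus TAM and minus TAM differed by 1.5-fold or more in members and by 1.5-fold or more the opposite way in other cells, and the difference between these ratios was not tested, as each group is 1 library. The log2 ratio of Lypd8 was -2.89 in members and 0.95 in other cells, and that of Tm4sf20, a tetraspanin-like membrane protein gene, was -2.19 and 1.06. For Clca4a, a colonocyte gene of the chloride channel accessory family, the values were -2.73 and 4.73, and for Muc3, a membrane mucin, -2.08 and 4.71. Gsta1, a glutathione transferase gene, had -0.69 and 2.24. In each case 1 minus TAM member cell held between 85.4% and 100% of the UMIs of its group, and without the cell that held most of the gene the log2 ratio in members was 2.03 for Lypd8, 1.60 for Tm4sf20 and 1.64 for Gsta1. For Clca4a and Muc3 minus TAM members then held 0 UMIs, so the log2 ratio was at least 0.90 and at least 0.98 against a floor of 3 counts. Without cells of a barcode found in both matrices, other cells had 67.9 CPM of Lypd8 in the plus TAM and 155 CPM in the minus TAM library, 17.8 and 23.8 CPM of Tm4sf20, 0.70 and 0.53 CPM of Clca4a, 2.36 and 0.58 CPM of Muc3 and 2.91 and 2.57 CPM of Gsta1, so Lypd8 and Tm4sf20 were then lower in the plus TAM library, Clca4a and Gsta1 differed by less than 1.5-fold and Muc3 was still higher.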

How the results depend on the processing

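No paired analysis was possible because each group is 1 library and the matrices hold no map from cells to the 8 records of a group, and for the same reason no replicate could be left out. The share of members was 12.1% of plus TAM and 1.005% of minus TAM cells with the top 5% taken, 36.0% and 11.1% with the top 20%, 10.0% in each with the limit set per library, and 14.3% and 2.01% when 3 or more score genes were required. The minus TAM share was 4.45% without a cell filter and 4.61% without Krt90 in the score. Against 149 genes higher in members, a 2-fold limit gave 55 and a minimum of 50 CPM gave 51. Against 182 lower, the numbers were 289 (top 5%), 103 (top 20%), 94 (limit per library), 115 (thinned cells), 48 (2-fold), 305 (5 CPM), 32 (50 CPM) and 276 (each gene without its top member cell). Against 512 genes higher in plus TAM members they were 868 (top 5%), 166 (2-fold), 781 (5 CPM) and 120 (50 CPM), and against 758 lower 1145 (top 5%), 1163 (limit per library), 191 (2-fold), 217 (50 CPM) and 1141 (3 or more score genes). Of the members, 68.7% remained on thinned cells, 71.4% without Asprv1, 76.8% without Krt90 and 58.2% with the limit per library.

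Of 242 ratios of named genes at or past 1.5-fold, 231 kept their direction under each of the 20 alternatives that can change a ratio and gave one, and 38 of 4838 values turned, with no value in 2 cases. Between libraries within members, log2 ratios turned for Lypd8 (top 5% 3.27, thinned 2.48, Psca left out 0.79, top cell left out 2.03, 3 or more score genes 1.07) and Tm4sf20 (4.07, 2.00, 1.40, 1.60 and 1.07 in the same order). They turned for Clca4a (thinned 3.71, at least 1.01 with the top 5% and at least 0.90 with the top cell left out) and Muc3 (top 20% 0.66, limit per library 0.13, and at least 0.22 with the top 5%, 2.47 thinned, 0.65 with Psca left out and 0.98 with the top cell left out), where each lower bound is against a floor of 3 counts for minus TAM members with 0 UMIs. For Gsta1 they were 1.65 (top 5%), 0.72 (top 20%), 1.17 (limit per library), 2.33 (thinned), 2.12 (Psca left out), 0.65 (mean over cells), 1.64 (top cell left out) and 1.67 (3 or more score genes). Krt13 turned to 0.11 (top 5%), Ccl5 to -0.33 (thinned), and Car1 to -1.49 (no cell filter) and -1.03 (Krt90 left out). Between members and other cells, Ccl5 turned to 1.36 in the plus TAM library without shared barcodes, and in the minus TAM library to 2.81 (top 20%), 2.97 (limit per library), 4.41 (thinned) and 2.30 (Krt90 left out). Spp1 in the minus TAM library turned to -1.35 (top 5%) and -0.22 (Asprv1 left out). The cause of these changes was not tested beyond the values given. Depth limits minus TAM members, whose 2790302 UMIs put 10 CPM at about 28 counts.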
